A study of Rattus norvegicus with 32 samples.

Results

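Ozone was compared with filtered air in rats without adrenal glands, with the brainstem and the hypothalamus pooled. The comparison rests on 16 of the 32 mRNA sequencing libraries of the study, 8 from ozone and 8 from air, and every adrenalectomized (ADREX) library was used. All rats were 13 weeks old and of the inbred, normotensive Wistar Kyoto strain. In the 4 groups compared, the rats had undergone total bilateral adrenalectomy and then spent 4 hours in filtered air or in ozone at 0.8 ppm, with 4 brainstem and 4 hypothalamus libraries for each exposure. The other 16 libraries, from sham-operated rats of the same strain and age with the same exposures, served for comparison. Total adrenalectomy takes away cortex and medulla at once, so glucocorticoids, mineralocorticoids and adrenal adrenaline are all lost as variables in this model, and the labels mention no hormone replacement. The labels do not state that each library is a separate rat, and if libraries share an animal, the p-values measure only the spread between these libraries.

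Inhaled ozone is an oxidant that irritates the airways, and it is known to activate the sympathetic nerves and the hypothalamic-pituitary-adrenal axis. In that axis corticotropin-releasing hormone from the hypothalamus drives the pituitary, the pituitary drives the adrenal cortex, and glucocorticoids return to the brain, where they act through the glucocorticoid receptor on genes such as Fkbp5. The brainstem receives the sensory nerves of the airways and holds the noradrenergic cell groups. Rats without adrenals therefore ask which transcripts of these tissues respond to ozone by a route that does not need an adrenal hormone, and pooling the tissues with tissue as a factor seeks a small response that both share.

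Libraries held 6.44 to 12.4 M recovered reads in ADREX rats and 6.48 to 11.3 M in sham rats. The tissue labels held in all 16 ADREX libraries. Hoxb5, a gene of the hindbrain, read 153 to 622 normalized counts in the brainstem and 0 to 7.51 in the hypothalamus, while Pmch, the melanin-concentrating hormone precursor, read 2038 to 3213 in the hypothalamus and 0.623 to 72.7 in the brainstem. One library stood apart. The median gene of brainstem ADREX ozone 81 lay 0.449 log2 units from the mean of the other 3 libraries of its group, against 0.143 to 0.302 in the other 15. Results below are given with and without it where it matters.

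No gene passed the test. With limma on log2(normalized count + 1) and tissue as a factor, 0 of 14518 genes (0%) had an adjusted p under 0.05, the smallest adjusted p was 0.671, and 0 genes reached an adjusted p under 0.1. At an unadjusted p under 0.05 there were 977 genes (6.73%), of which 470 were higher in ozone (3.24%) and 507 lower (3.49%), where 5% of the genes would be 726. Without brainstem ADREX ozone 81 that number was 1686, without both libraries of number 66 it was 627, and in neither case did a gene pass. Leaving out both libraries of number 81 left 1 gene past the threshold, the provisional AABR07060862.1, at 0.90 with an adjusted p of 0.00762 by limma. Taken alone, the brainstem gave 0 calls (0%) and 738 genes at an unadjusted p under 0.05 (5.08%), and the hypothalamus 0 calls (0%) and 705 genes (4.86%).

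The libraries bounded the change of most genes to within 1.5-fold. A median gene had a 95% interval of 0.28 log2 units to either side of its change, which is 1.21-fold. For 11430 genes (78.7%) the whole interval lay within a 1.5-fold change in either direction, and for 13838 (95.3%) it lay within 2-fold. In the same model the 16 sham libraries gave 905 of 14536 genes (6.23%), 450 higher (3.1%) and 455 lower (3.13%). Of the 896 sham-called genes also tested in ADREX rats, 672 changed by less than 1.5-fold in sham rats. An interval within 1.5-fold can therefore include a change of that size. The difference between the ozone changes of ADREX and sham rats passed for 178 of 14533 genes (1.22%).

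The glucocorticoid-responsive genes had a small median change in ADREX rats. Of the 45 genes on this list 44 were tested, 0 passed in ADREX rats, 12 had a positive and 32 a negative change, and the median was -0.11, beside -0.003 for all genes. At an unadjusted p under 0.05 there were 2 positive and 3 negative, beside 3.24% and 3.49% of all genes. Without brainstem ADREX ozone 81 the split of all 44 by sign was 20 to 24 and the median -0.020. The same 44 genes had a median of 0.61 in sham rats. There 28 were called higher and 1 lower, beside 3.1% and 3.13% of all genes. For the difference between operations 17 passed, beside 1.22% of all genes. The list was chosen with earlier results of these data known, so these counts are a description.

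Fkbp5, whose product is an HSP90 co-chaperone that lowers the hormone affinity of the glucocorticoid receptor, shows the contrast. Its brainstem libraries read 242, 193, 262 and 202 normalized counts in ADREX air and 235, 191, 231 and 173 in ADREX ozone. The hypothalamus read 231, 247, 235 and 189 in air and 223, 211, 231 and 211 in ozone, so the exposures overlapped fully in both tissues. The pooled change was -0.08 ± 0.09 (SE), with a 95% interval from -0.27 to 0.12 and an exact two-sided permutation p of 0.514 over the 70 ways to assign 4 of the 8 numbers. Sham rats went from 264 ± 33.9 (SD, n = 4) in air to 1308 ± 113 in ozone in the brainstem and from 250 ± 62.2 to 1162 ± 173 in the hypothalamus. The sham change of 2.27 and the ADREX change differed by -2.34 ± 0.14 (limma, adjusted p = 3.7e-12).

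Further glucocorticoid-responsive genes had ADREX intervals that included 0 and lay below the sham value. Gpd1, the cytosolic glycerol-3-phosphate dehydrogenase, had a change of -0.03 in ADREX rats (interval -0.33 to 0.28) against 1.88 in sham rats. Cdkn1a, the cyclin-dependent kinase inhibitor p21, had -0.21 (interval -0.53 to 0.10) against 2.37. Plin4, a lipid droplet coat protein, had -0.03 against 2.32, with a wide interval from -0.76 to 0.71. Brainstem ADREX ozone 81 read 108 for Plin4 and the other 15 libraries 6.25 to 33.5, and without that library the change was -0.31 ± 0.27. Zbtb16, a zinc finger transcription factor, had -0.13 against 2.25. These genes and Fkbp5 were named in part for a large difference between the operations, so their passing it is no separate result. Each of the 4 differences passed with limma, at adjusted p values of 1.58e-08 for Gpd1, 1.32e-10 for Cdkn1a, 0.000178 for Plin4 and 0.000116 for Zbtb16.

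Pla2g3, a secreted phospholipase A2, kept a positive value in ADREX rats. Brainstem libraries read 51.2, 61.3, 85.2 and 53.0 in air and 57.9, 106, 73.6 and 105 in ozone, and hypothalamus libraries 8.83, 15, 20.1 and 9.78 in air and 39.4, 14.4, 17.5 and 17.6 in ozone. The exposures overlapped in both tissues. Its change was 0.54 ± 0.22, which did not pass (limma, adjusted p = 0.697), against 2.89 in sham rats. Fmo2, a flavin monooxygenase, and Slc19a3, a thiamine transporter, had negative values of -0.70 ± 0.30 and -0.59 ± 0.30 in ADREX rats against rises of 1.97 and 1.72 in sham rats. Mt2A, a metallothionein that binds zinc, had -0.01 against 1.89, and Tnfrsf11a, the receptor RANK, -0.03 against 1.78. These 5 genes were named because their differences between operations were among the 10 most negative of those that passed, so their passing is a description. With the tissues of each number averaged to 1 value, Mt2A lost the call (limma, adjusted p = 0.0562).

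Tsc22d3, which encodes the glucocorticoid-induced leucine zipper, and Sgk1, a kinase that regulates ion transport, had a low value in the library that stood apart. Tsc22d3 read 577 in brainstem ADREX ozone 81 and 1941 to 1962 in the other 3 libraries of that group. Sgk1 read 81.6 there and 245 to 273 in the others. The pooled ADREX changes were -0.16 ± 0.20 for Tsc22d3 and -0.15 ± 0.22 for Sgk1, and their differences from sham of -0.67 and -1.34 did not pass (limma, adjusted p = 0.202 and 0.14). Without brainstem ADREX ozone 81 the ADREX changes were 0.06 ± 0.07 for Tsc22d3 and 0.06 ± 0.13 for Sgk1. The difference from sham was then -0.45 for Tsc22d3, which passed (limma, adjusted p = 0.0134), and -1.13 for Sgk1, which did not (adjusted p = 0.183), although Sgk1 passed without both libraries of number 18 (adjusted p = 0.00563). Per1, a clock gene with glucocorticoid response elements, had 0.19 ± 0.12 against a sham rise of 0.66, and this difference did not pass either (adjusted p = 0.514). Aspa, the enzyme that splits N-acetylaspartate in oligodendrocytes, had -0.07 ± 0.13 against 1.37, and the difference of -1.44 passed (adjusted p = 3.4e-07). Nr3c1, the glucocorticoid receptor itself, had 0.09 ± 0.13 against a sham fall of 0.43 on the log2 scale, a difference that did not pass (adjusted p = 0.117) and that passed without brainstem ADREX ozone 81 (adjusted p = 0.00241). Nr3c2, the mineralocorticoid receptor, had 0.31 ± 0.14 at an adjusted p of 0.706.

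**Figure D1:**
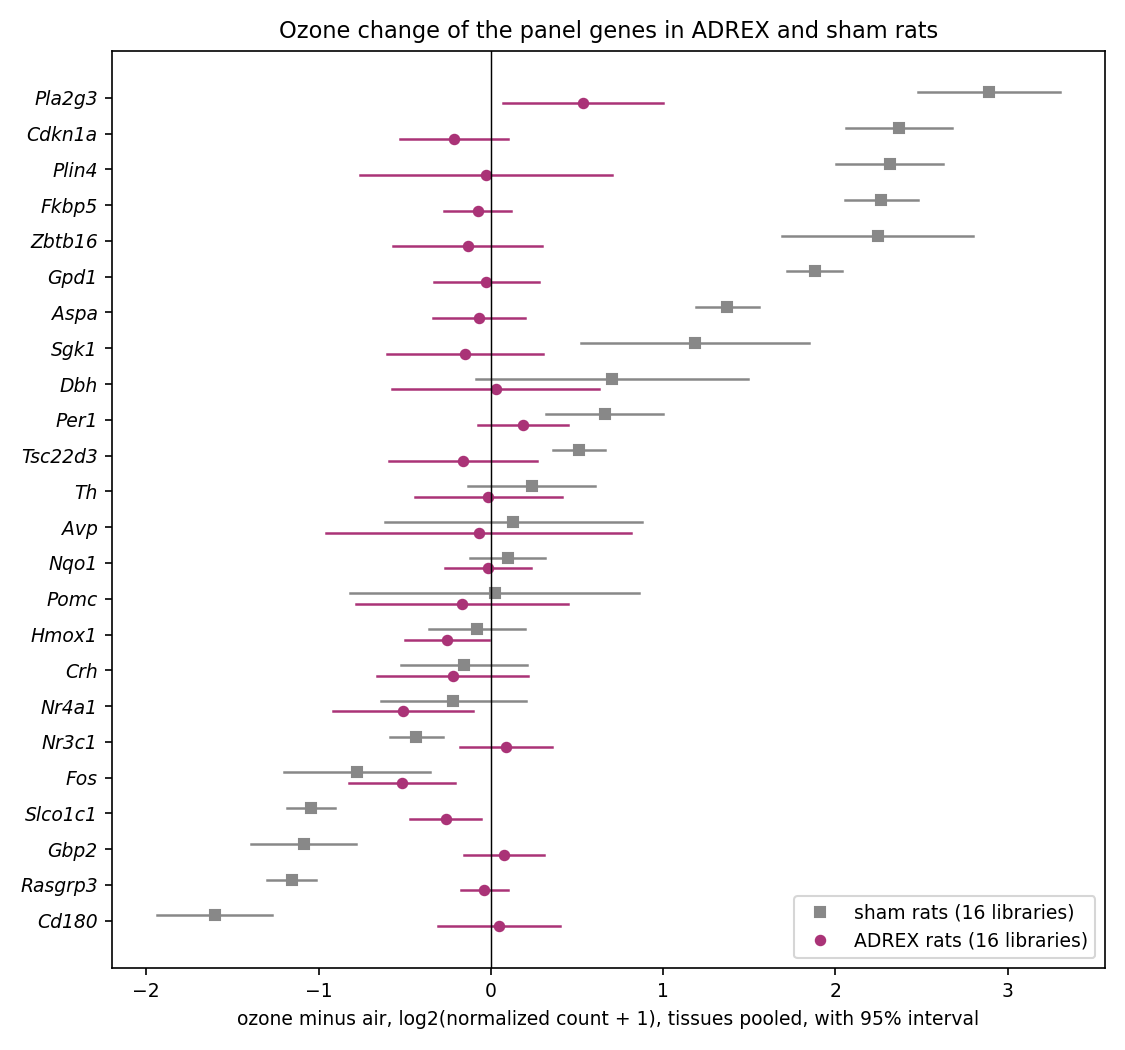
Change with ozone (ozone minus air, log2 of normalized count + 1, horizontal axis) of the 24 panel genes that were tested, with 95% intervals from limma, in ADREX rats (circles) and sham rats (squares), 16 libraries each. Fkbp5 lies at -0.08 in ADREX and at 2.27 in sham rats, and the ADREX intervals of Fos, Nr4a1, Slco1c1, Hmox1 and Pla2g3 leave out 0 before adjustment.

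Of the genes whose difference between operations passed on the positive side, 7 of the 10 most positive are described here, with Slco1c1 from the panel. All 8 fell in sham rats. They were picked for that difference and do not stand for all genes lowered in sham rats, of which 305 of 455 had the same sign in ADREX rats. Rasgrp3, which activates small GTPases of the Ras family, read 1581 to 1881 in brainstem ADREX air and 1633 to 1724 in ozone, and 579 to 732 against 596 to 657 in the hypothalamus. Its change was -0.04 ± 0.06 against -1.16 ± 0.07 in sham rats. Cd180, a Toll-like receptor homologue of myeloid and B cells, had 0.05 ± 0.17 against -1.6, and Gbp2, an interferon-induced guanylate-binding protein, 0.08 ± 0.11 against -1.09. Kdr, the VEGF receptor of endothelium, had -0.02 ± 0.10 against -0.89, Tlr2 0.20 ± 0.13 against -0.77 and Adamts1, a matrix protease, 0.11 ± 0.17 against -0.86. Cd93, an endothelial C-type lectin receptor, stood at 0.34 ± 0.14 in ADREX rats and -0.67 ± 0.15 in sham rats. Adjusted p values of the difference ran from 6.09e-10 for Rasgrp3 to 0.0162 for Adamts1 by limma. Adamts1 lost the call without number 3, 17, 19, 65 or 68 (adjusted p up to 0.063) and Tlr2 without number 17, 19 or 20 (up to 0.0556). With the tissues of each number averaged to 1 value, Adamts1, Tlr2 and Kdr lost the call (limma, adjusted p = 0.116, 0.112 and 0.0715). Slco1c1, the thyroxine carrier of the blood-brain barrier, kept a negative value of -0.26 ± 0.10 (adjusted p = 0.697) and fell by 1.04 on the log2 scale in sham rats.

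Across the transcriptome, the small ADREX values leaned toward the sham response. ADREX and sham rats share no library. Of the 905 genes called in sham rats, 896 were also tested in ADREX rats, and 604 of them (67.4%) had a change of the same sign, beside 57.5% of all 14395 genes tested in both. At an unadjusted p under 0.05 in ADREX rats, 101 of the 896 (11.3%) had the sham sign and 13 the opposite one. Over all 14395 genes these counts were 695 (4.83%) and 277. The 13499 genes not called in sham rats also leaned that way, with 594 (4.4%) and 264. Signed by the sham change, the median ADREX change was 0.065 log2 units, where the median sham change was 0.40. None of these shares was tested, since genes are not independent. Without brainstem ADREX ozone 81 there were 619 of the same sign and 153 at an unadjusted p under 0.05 with that sign, and without both libraries of number 66 there were 558 and 62.

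The strongest sham responses had a lower share of equal signs. Of the 61 genes with a sham change of 2-fold or more, 29 (47.5%) had the same sign in ADREX rats and 44 passed for the difference between operations. The ADREX interval left out the sham value for 58 of these 61. Between 1.5-fold and 2-fold, 117 of 163 genes (71.8%) had the same sign, and under 1.5-fold 458 of 672 (68.2%). These genes were chosen by their sham test, so the comparison of sizes is a description.

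**Figure D2:**
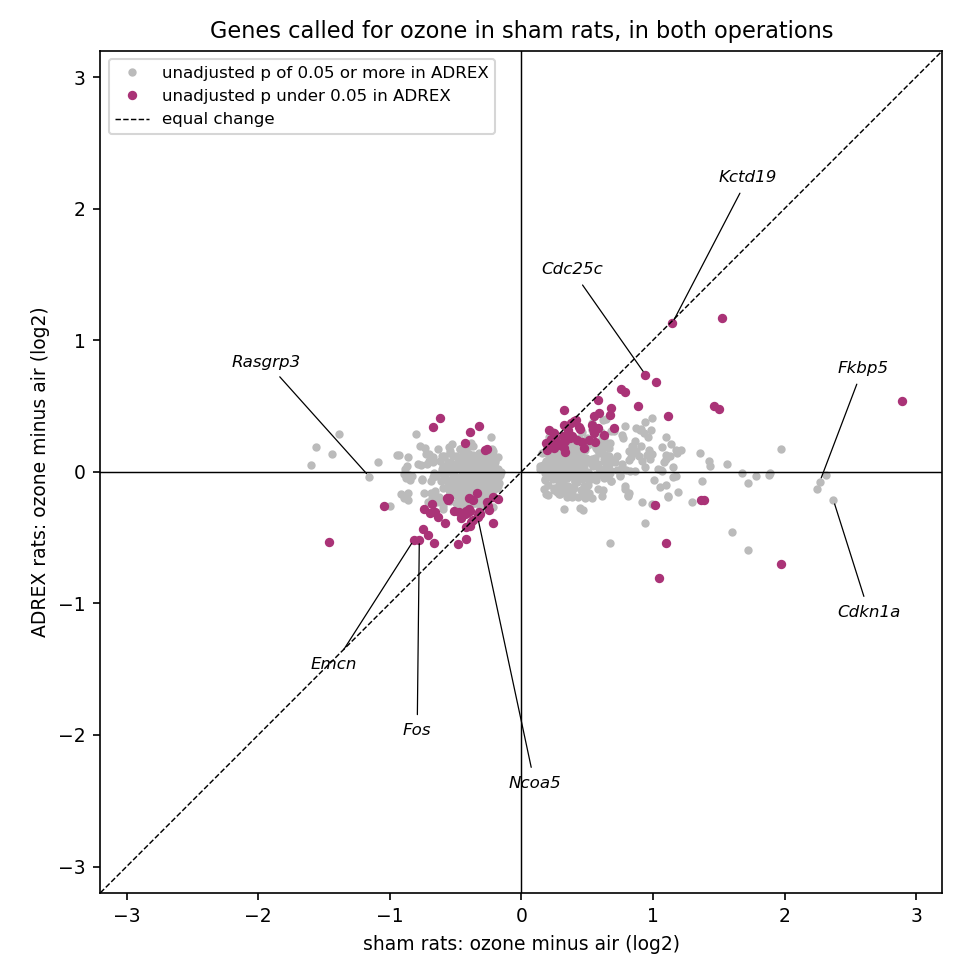
Each of the 896 genes called for ozone in sham rats by its change in sham rats (horizontal axis, ozone minus air, log2) and in ADREX rats (vertical axis, the same unit), with genes at an unadjusted p under 0.05 in ADREX rats in purple. Fkbp5 and Cdkn1a lie far right near the horizontal line, at ADREX changes of -0.08 and -0.21, while Cdc25c and Kctd19 lie near the dashed line of equal change.

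Ncoa5, which encodes a coregulator of nuclear receptors, passed under 2 alternative settings and not in the main test. Brainstem ADREX libraries read 876, 840, 708 and 795 normalized counts in air and 630, 652, 658 and 650 in ozone, and hypothalamus libraries read 956, 1119, 815 and 1051 in air and 799, 700, 713 and 794 in ozone. Every ozone library lay below every air library of its tissue. The change was -0.35 ± 0.07 (SE; interval -0.50 to -0.19) and did not pass in the main test (limma, adjusted p = 0.671), although it passed with DESeq2 on the recovered reads (adjusted p = 0.0418) and in the limma fit of all 32 libraries (adjusted p = 0.0413). The exact two-sided permutation p was 0.0286, the smallest the 70 assignments can give, and 0.118 after Benjamini-Hochberg adjustment over the 116 genes tested in this way. In sham rats Ncoa5 fell by 0.33 on the log2 scale (limma, adjusted p = 0.000313), from 771 ± 79.3 to 601 ± 30.1 in the brainstem and from 925 ± 19 to 747 ± 27.1 in the hypothalamus. The difference between operations was -0.01 ± 0.09.

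Genes named for a small p in ADREX rats were chosen by a value that also enters their difference from sham and their exact test, so both are given as descriptions. Other genes of smallest p with a lower level in ozone were Clcn2, Mxd4, Bdnf, Rbm4 and Emcn, and none passed (limma, adjusted p = 0.671 for each). Clcn2, a voltage-gated chloride channel, read 114, 80.3, 79.5 and 134 in brainstem ADREX air, 48.6, 49.6, 83.3 and 58.4 in ozone, 43.2, 52.2, 46.9 and 67.4 in hypothalamus ADREX air and 23.5, 31.5, 35.0 and 31.7 in ozone. Its groups overlapped in the brainstem through 1 ozone library and did not overlap in the hypothalamus. The change of -0.76 ± 0.15 had the opposite sign to the sham value of 0.37 ± 0.18, and the difference of -1.13 ± 0.22 passed (adjusted p = 0.00441).

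Mxd4, a repressor of the MYC network that pairs with MAX, read 615 to 747 in brainstem ADREX air and 495 to 577 in ozone, and 532 to 702 against 449 to 570 in the hypothalamus. Only the hypothalamus groups overlapped. Its change was -0.36 ± 0.08, past the threshold in the fit of all 32 libraries (adjusted p = 0.0413), and the sham value was 0.10 ± 0.05. The difference of -0.45 ± 0.09 passed (limma, adjusted p = 0.00588). Rbm4, a splicing regulator, had -0.42 ± 0.11 in ADREX and -0.42 ± 0.11 in sham rats, where it passed. Emcn, the endothelial sialomucin endomucin, had -0.52 ± 0.13 against -0.82 ± 0.13 in sham rats, where it also passed. The 17 tested endothelial markers, Emcn among them, had 7 positive and 10 negative changes and a median of -0.020. In bulk tissue, fewer cells of a type and less RNA per cell cannot be told apart.

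On the side of higher levels in ozone stood Mcam, Cdc25c, Hs3st1, Zc3h6, Asxl1 and Ctu2, again with no call (limma, adjusted p = 0.671 for each). Mcam, the adhesion molecule CD146 of vessel walls, read 291, 334, 297 and 328 in brainstem ADREX air and 575, 391, 374 and 404 in ozone, and 190, 239, 246 and 194 against 260, 277, 295 and 284 in the hypothalamus. The exposures did not overlap in either tissue. Its change was 0.41 ± 0.09, or 0.34 without brainstem ADREX ozone 81, its sham value was -0.18 ± 0.09, and the difference of 0.59 ± 0.13 passed (limma, adjusted p = 0.0139).

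Cdc25c, the phosphatase that admits cells to mitosis, read 37.5, 38.9, 34.1 and 31.4 in brainstem ADREX air and 51.7, 64.9, 62.2 and 56.3 in ozone. Its hypothalamus values, 13.7 to 41.0 in air and 34.7 to 53.9 in ozone, overlapped. The change of 0.74 ± 0.18 stood beside a sham rise of 0.94 (limma, adjusted p = 0.00244), and the difference between operations was -0.21 ± 0.24. Hs3st1, a heparan sulfate sulfotransferase, had 0.41 ± 0.10 against -0.13 in sham rats, and this difference passed (adjusted p = 0.0351). Zc3h6, a zinc finger protein, had 0.44 ± 0.11 against 0.30, Asxl1, a Polycomb-associated chromatin protein, 0.43 ± 0.11 against 0.21, and Ctu2, a tRNA thiolation enzyme, 0.48 ± 0.12 against 0.50.

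**Figure D3:**
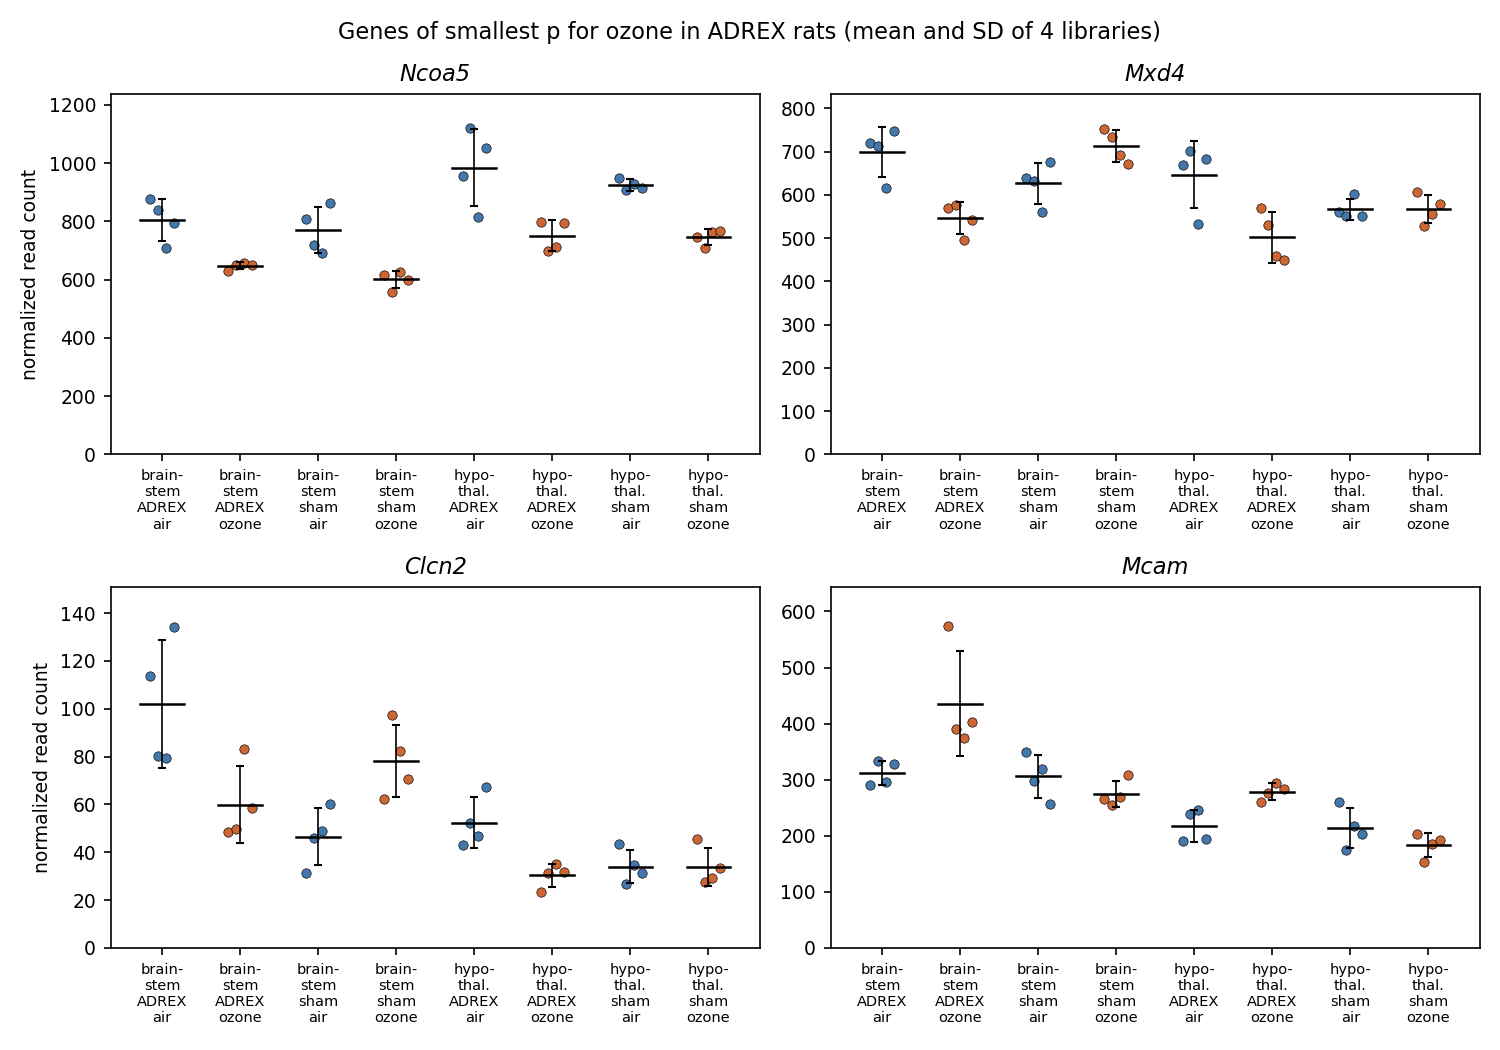
Normalized read counts (vertical axes, from 0) of Ncoa5, Mxd4, Clcn2 and Mcam in the 8 groups of the study, with 1 point per library, the mean as a bar and the SD of 4 libraries as a whisker, air in blue and ozone in orange. Ncoa5 is lower in ozone in all 4 pairs of groups, whereas in ADREX rats the mean is lower in ozone in both tissues for Mxd4 and Clcn2 and higher for Mcam, a pattern not seen in the sham groups.

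Complete separation in both tissues was rare. In 11 of 14518 genes (0.0758%) the 4 ozone libraries lay on the same side of the 4 air libraries in the brainstem and in the hypothalamus, 6 of them higher in ozone and 5 lower, and in 3 genes the tissues separated in opposite directions. The brainstem alone separated for 320 genes (2.2%) and the hypothalamus alone for 525 (3.62%). Besides Ncoa5, Mcam and Asxl1 they included Rgs2, Astn2, Clcc1, Stard9 and Rnf145. Rgs2, a regulator that shortens G-protein signalling, read 185 to 227 in brainstem air against 139 to 179 in ozone, and 169 to 232 against 111 to 162 in the hypothalamus. Its change was -0.37 ± 0.10. Astn2, which guides migrating neurons, had 0.32 ± 0.09, Stard9, a mitotic kinesin, 0.35 ± 0.10, and Clcc1, a chloride channel of the endoplasmic reticulum, 0.22 ± 0.06. Rnf145, a sterol-regulated ubiquitin ligase, had -0.21 ± 0.06. Clcc1 and Rnf145 passed in sham rats with the same sign, at 0.24 and -0.18 (limma, adjusted p = 0.0359 and 0.0346).

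The tissues agreed little beyond such genes. Over all 14518 genes the brainstem and hypothalamus changes had the same sign for 7447 (51.3%) and a Pearson correlation across genes of 0.071, which is a description, since genes are not replicates and both tissues may come from the same rats. No gene passed for a difference between the tissues (0 of 14518, 0%, smallest adjusted p by limma 0.922), and 392 (2.7%) had an unadjusted p under 0.05, a count that ranged from 209 to 1000 as single libraries or numbers were left out. Dll1, a Notch ligand, had the value -0.58 in the brainstem and 0.26 in the hypothalamus. Dusp16, a phosphatase of stress-activated kinases, read 61.4 to 92.7 in brainstem air and 111 to 141 in ozone, and 82.9 to 101 against 80.9 to 89.0 in the hypothalamus. Its sham change had the opposite sign to its pooled ADREX value (-0.39 against 0.30), and that difference passed (limma, adjusted p = 0.00739).

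Immediate early genes are transcribed within minutes of a stimulus without new protein synthesis, and in neurons their transcripts serve as a mark of recent activity. The list had 43 genes, 37 were tested, and 0 passed. Negative values prevailed, with 29 of 37 genes (78.4%) lower in ozone, beside 50.8% of all genes, and a median of -0.18. In each tissue the median was negative as well, at -0.22 in the brainstem and -0.16 in the hypothalamus, and sham rats gave -0.03. The value was negative in both tissues for 19 of the 37, beside 26.4% of all genes. At an unadjusted p under 0.05 there were 6 lower and 0 higher, beside 3.49% and 3.24% of all genes. The 6 were Bdnf, Egr1, Fos, Fosb, Nr4a1 and Sik1. With each library and each number left out in turn, 26 to 31 genes were lower, 5 to 8 of them at an unadjusted p under 0.05, and the median stayed between -0.24 and -0.13. A lean to lower values was not particular to this list. Lower genes made up 85.7% of the unfolded-protein-response list, 75% of the inflammatory list and 74.2% of the respiratory chain list. The cholesterol synthesis and circadian clock lists leaned the other way, with 20.8% and 43.5% lower.

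Fos, the transcription factor subunit most used as an activity mark, read 76.2, 53.8, 53.4 and 53.0 in brainstem ADREX air and 49.8, 49.6, 47.3 and 55.2 in ozone. Its hypothalamus libraries read 114, 64.2, 97.9 and 94.5 in air and 57.3, 40.4, 51.3 and 56.3 in ozone, so the exposures overlapped in the brainstem and not in the hypothalamus. The change was -0.52 ± 0.15 (limma, adjusted p = 0.671). The exact permutation p was 0.0286, the smallest the 70 assignments can give, and 0.118 after Benjamini-Hochberg adjustment over 116 genes. In sham rats Fos fell by 0.78 on the log2 scale (adjusted p = 0.0262), and the difference between operations was 0.26 ± 0.25.

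Fosb, its close relative, read 35.3, 16.6, 30.7 and 32.5 in brainstem air against 16.2, 10.6, 12.3 and 15.9 in ozone, and 66.7, 50.2, 68.6 and 64.1 against 47.0, 35.9, 30.0 and 55.1 in the hypothalamus. Brainstem exposures did not overlap, by a margin of less than 1 normalized count, and hypothalamus exposures overlapped. Its change of -0.78 ± 0.18 was the most negative on the list (exact permutation p = 0.0571), its sham value was 0.34 ± 0.16, and the difference of -1.12 ± 0.24 passed (limma, adjusted p = 0.0122).

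Egr1, a zinc finger transcription factor, read 275, 153, 126 and 154 in brainstem air against 133, 90.9, 118 and 127 in ozone, and 313, 172, 299 and 330 against 229, 120, 193 and 208 in the hypothalamus. Both tissues overlapped. The change was -0.55 ± 0.18 in ADREX rats (exact permutation p = 0.0857) and -0.49 in sham rats, where it passed (limma, adjusted p = 0.0188). Bdnf, the neurotrophin, read 87.7 to 104 in brainstem air against 56.1 to 77.9 in ozone, and 110 to 165 against 103 to 125 in the hypothalamus. Its change was -0.46 ± 0.11 (exact permutation p = 0.0286), and -0.37 ± 0.11 in sham rats (limma, adjusted p = 0.0539).

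Nr4a1, an orphan nuclear receptor, read 197, 128, 161 and 116 in brainstem air against 61.0, 119, 158 and 93.5 in ozone, and 318, 158, 268 and 209 against 210, 138, 208 and 118 in the hypothalamus, with overlap in both. Its change was -0.51 ± 0.19 (exact permutation p = 0.114). Sik1, a salt-inducible kinase, read 238, 112, 145 and 101 against 91.6, 102, 110 and 96.7 in the brainstem and 252, 188, 235 and 214 against 168, 139, 204 and 209 in the hypothalamus. Its change was -0.40 ± 0.15 (exact permutation p = 0.0857). After adjustment over 116 genes the exact permutation p was 0.118 for Bdnf, 0.17 for Fosb, 0.226 for Egr1 and Sik1 and 0.26 for Nr4a1. Brainstem ADREX air 65 had the highest value of its group for Fos, Fosb, Egr1, Nr4a1, Sik1 and Bdnf. Without both libraries of number 65, Fos was at -0.40, Sik1 at -0.25 and Nr4a1 at -0.36 with an unadjusted limma p of 0.0894.

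**Figure D4:**
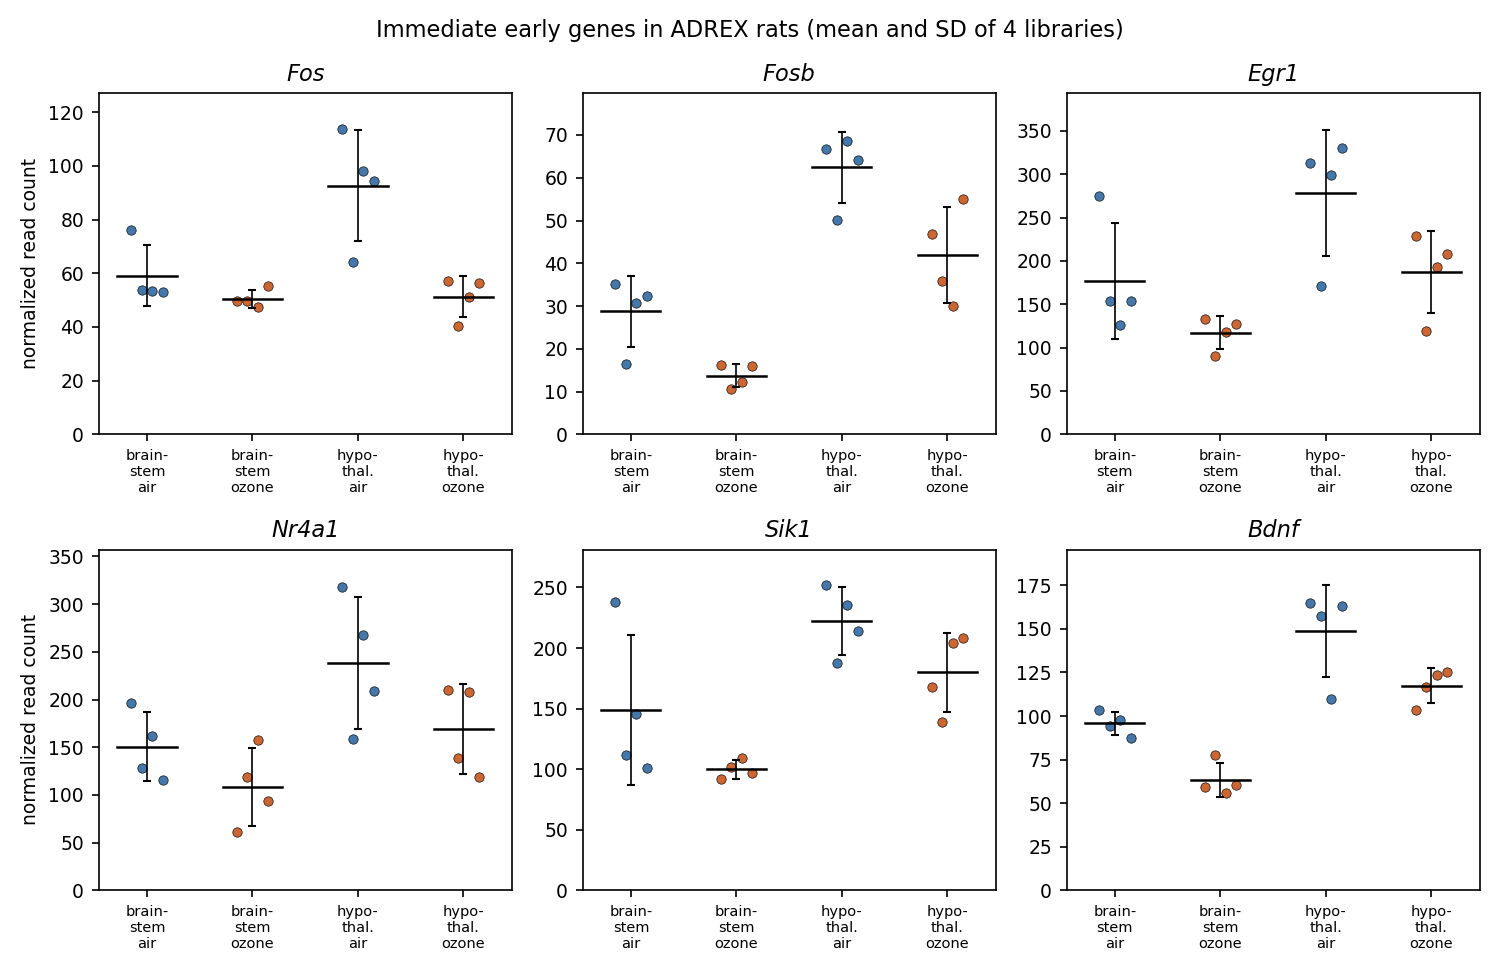
Normalized read counts (vertical axes, from 0) of 6 immediate early genes in the 4 ADREX groups, with 1 point per library, the mean as a bar and the SD of 4 libraries as a whisker, air in blue and ozone in orange. Mean values are lower in ozone in both tissues for each gene, with overlapping points in most panels and 1 high brainstem air library in the Fos, Egr1 and Sik1 panels.

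Many immediate early genes respond to cyclic AMP and calcium through CREB, which binds the half-site TGACG, which reads as CGTCA on the opposite strand. The upstream sequences of Nr4a1 and Sik1, which carry such half-sites, are shown beside that of Fosb, the most negative member. Fosb has none in the 250 bases upstream of its listed start site. RefSeq's promoter table (assembly GRCr8, not the build of the expression data) held 26 of the 37 tested genes, Fos not among them, with 33 start sites, of which 16 had a half-site in the 250 bases upstream. Egr1 had 2, and Bdnf had 1 at 1 of its 6 start sites. Over all 33469 promoters of that table, 18.2% had one or more half-sites on either strand, 3.98% had 2 or more and 0.173% had 4 or more, with overlaps between matches allowed. Capitals mark the half-sites, 4 in Nr4a1 (chr7:134259888-134260137, plus strand) and 2 in Sik1 (chr20:9958647-9958896, minus strand), against 0 in Fosb (chr1:88089185-88089434, minus strand). A match of letters is a description and not a bound site.
Nr4a1: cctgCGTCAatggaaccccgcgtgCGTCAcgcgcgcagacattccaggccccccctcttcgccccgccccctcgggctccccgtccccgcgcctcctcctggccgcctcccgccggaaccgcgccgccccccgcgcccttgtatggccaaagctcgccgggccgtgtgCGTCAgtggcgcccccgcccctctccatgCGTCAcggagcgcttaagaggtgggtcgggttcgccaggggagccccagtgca
Sik1: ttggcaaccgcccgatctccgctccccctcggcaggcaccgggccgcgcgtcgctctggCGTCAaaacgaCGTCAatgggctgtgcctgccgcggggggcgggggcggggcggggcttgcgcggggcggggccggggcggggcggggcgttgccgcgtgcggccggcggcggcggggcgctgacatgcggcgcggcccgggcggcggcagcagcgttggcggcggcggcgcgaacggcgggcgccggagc
Fosb: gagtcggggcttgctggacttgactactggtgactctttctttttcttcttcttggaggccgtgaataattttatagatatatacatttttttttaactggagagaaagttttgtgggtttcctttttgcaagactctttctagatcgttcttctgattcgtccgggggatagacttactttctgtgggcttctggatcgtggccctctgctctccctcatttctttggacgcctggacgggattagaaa

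Other pathway lists had no called member in ADREX rats, and their medians lay between -0.14 and 0.10. Cholesterol synthesis genes leaned upward, with 19 of 24 tested genes positive (79.2%, beside 49.2% of all genes) and a median of 0.10. At an unadjusted p under 0.05 there were 5 positive and 1 negative, beside 3.24% and 3.49% of all genes. Fdft1, squalene synthase, read 1393 to 1875 in brainstem air against 1781 to 2256 in ozone, and 1017 to 1194 against 1210 to 1977 in the hypothalamus. Its change was 0.34 ± 0.10, and Lss, lanosterol synthase, had 0.27 ± 0.09 and Hmgcs1, which makes the precursor of mevalonate, 0.20 ± 0.08. The list had a sham median of 0.03, and Lss stood at 0.04 in sham rats. Insig1, a further member, had 0.24 ± 0.10 in ADREX rats and 0.52 ± 0.07 in sham rats, where it passed (limma, adjusted p = 7.96e-05). Neither Insig1 nor the 3 genes above passed for the difference between operations. With libraries or numbers left out in turn, 18 to 22 of the 24 genes stayed positive and 3 to 8 had an unadjusted p under 0.05 in that direction.

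Respiratory chain genes leaned the other way, with 46 of 62 negative (74.2%, beside 50.8% of all genes). Their median was -0.14, chiefly in the hypothalamus (-0.17, against -0.06 in the brainstem). Only 4 had an unadjusted p under 0.05, all lower, beside 3.49% of all genes lower at that p. Ndufv2, a flavoprotein subunit of complex I, had -0.34 ± 0.14. Without both libraries of number 66 the list's median was -0.028 and 0 members had an unadjusted p under 0.05 with either sign. In ribosomal protein genes Rpl31 stood at -0.49 ± 0.20, or -0.31 without both libraries of number 81. This list had 39 of 62 negative (62.9%, beside 50.8% of all genes) and a median of -0.05. That median ran from -0.133 to 0.00868 as libraries or numbers were left out, turning sign without number 66. Copies and pseudogenes of both families can share reads, and their treatment in counting was not stated.

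Unfolded-protein-response genes were negative in 24 of 28 cases with a median of -0.09, 3 of them and 1 positive gene at an unadjusted p under 0.05, beside 50.8% of all genes negative and 3.49% negative at that p. With libraries or numbers left out, 20 to 24 were negative, the median ran from -0.115 to -0.056, and 0 (without number 66 or 83) to 7 (without brainstem ADREX ozone 81) were negative at an unadjusted p under 0.05. Atf6, the sensor that is cleaved under endoplasmic reticulum stress, had 0.27 ± 0.10 against that trend. Heat-shock and chaperone genes divided evenly, 12 to 14, and Dnajb1, the HSP40 co-chaperone, had -0.39 ± 0.13 beside a sham fall of 0.22 on the log2 scale. Among HIF target genes, 21 of 29 were negative (72.4%, beside 50.8% of all genes). At an unadjusted p under 0.05 there were 4 negative and 1 positive, beside 3.49% and 3.24% of all genes. P4ha1, a collagen prolyl hydroxylase, had -0.48 ± 0.13 in ADREX rats and fell by 0.71 on the log2 scale in sham rats (limma, adjusted p = 7.94e-07). Ddit4, an inhibitor of mTOR signalling that is on both the HIF and the glucocorticoid list, read 252 to 404 in brainstem air against 146 to 275 in ozone and 239 to 271 against 191 to 223 in the hypothalamus. Its change of -0.46 ± 0.12 and its sham value of 0.52 differed by -0.98 (limma, adjusted p = 0.0087).

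Antioxidant and inflammatory transcripts gave no call. Of 33 NRF2 antioxidant genes, 22 were negative (66.7%, beside 50.8% of all genes), with a median of -0.08. At an unadjusted p under 0.05, 1 was positive and 2 were negative, beside 3.24% and 3.49% of all genes. Hmox1, haem oxygenase 1, read 58.0 to 66.2 in brainstem ADREX air against 38.0 to 56.1 in ozone and 54.0 to 68.4 against 46.3 to 70.3 in the hypothalamus, a change of -0.25 ± 0.12 (limma, adjusted p = 0.72). Nqo1, a quinone reductase, had -0.02 ± 0.12, with an interval from -0.26 to 0.23. Sqstm1, the autophagy receptor p62, had -0.28 ± 0.11. The cytokines Il1b and Il6 were too low to test, at ADREX means of 2.45 and 0.415 normalized counts. Of 24 inflammatory genes 18 were negative (75%, beside 50.8% of all genes), with Ptgs1, cyclooxygenase 1, at -0.36 ± 0.14. Interferon and antigen-presentation genes had a median of -0.04 in ADREX and -0.30 in sham rats. In sham rats 5 of the 34 genes were called lower (limma, adjusted p under 0.05), beside 3.13% of all genes. In ADREX rats Irf9, a subunit of the interferon-stimulated transcription complex, had -0.39 ± 0.12 and Ifi44 -0.36 ± 0.14.

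Genes of the stress axis and of catecholamine systems had no call either. Stress-axis genes and neuropeptides were negative in 21 of 31 cases (67.7%, beside 50.8% of all genes), with a median of -0.12. That median ran from -0.172 to 0.00777 as libraries or numbers were left out. Catecholamine genes were negative in 12 of 17 (70.6%), with a median of -0.06. Crh, corticotropin-releasing hormone, read 21.7 to 27.5 in hypothalamus ADREX air against 16.9 to 34.0 in ozone, and its pooled change of -0.22 ± 0.21 was 0.00927 without both libraries of number 81. Crhbp, which binds and limits that hormone, had -0.54 ± 0.21 (limma, adjusted p = 0.697). Avp, vasopressin, read 274 to 394 in hypothalamus air against 291 to 524 in ozone. Pomc, the precursor of corticotropin, had a pooled value of -0.17 ± 0.29. Th, tyrosine hydroxylase, had -0.01 ± 0.20 (interval -0.44 to 0.41) and Dbh, dopamine beta-hydroxylase, read 111 to 187 in brainstem air against 96.7 to 172 in ozone. Circadian clock genes were positive in 13 of 23 cases (56.5%, beside 49.2% of all genes), with a median of 0.05 against 0.11 in sham rats.

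**Figure D5:**
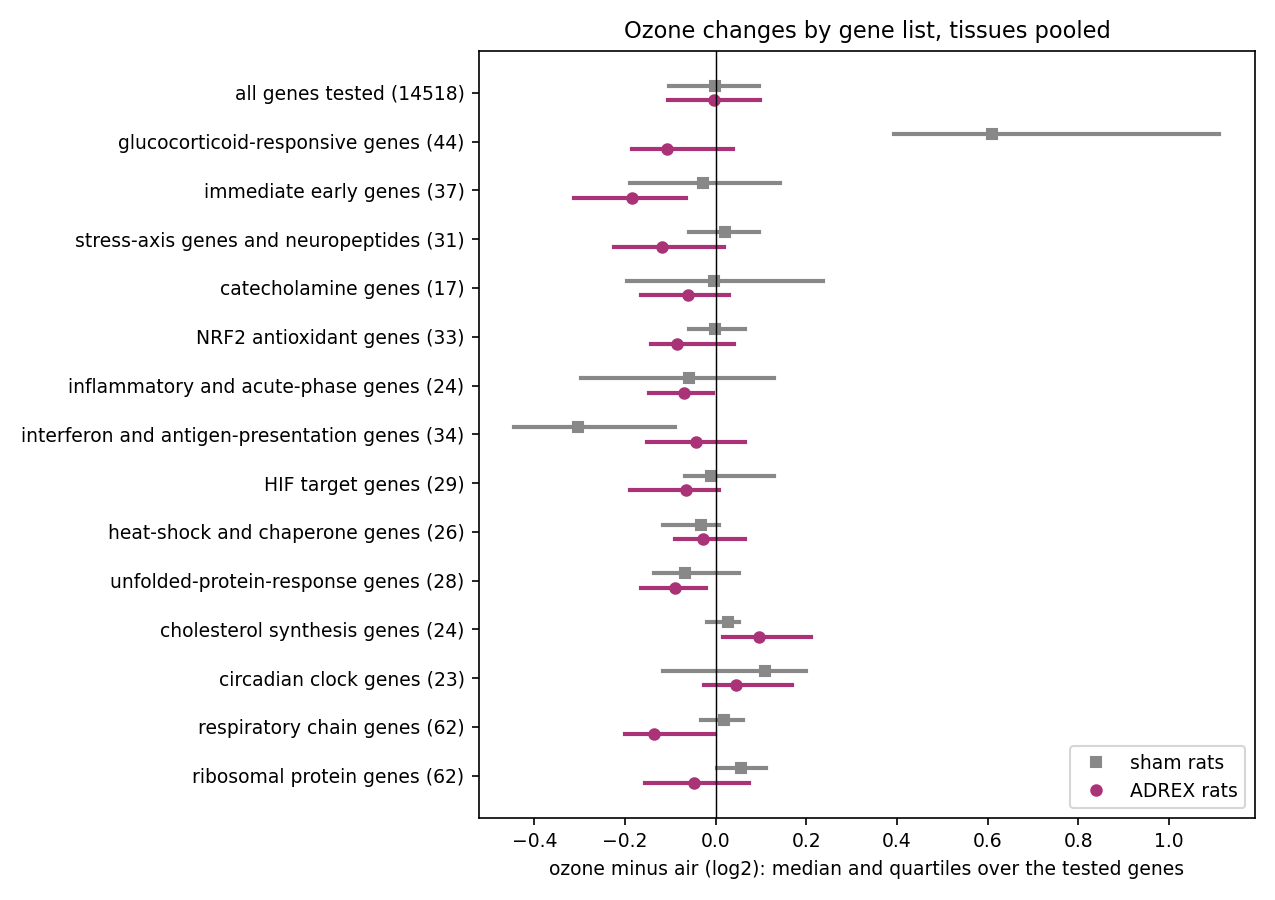
Median (symbol) and quartiles (line) of the change with ozone (horizontal axis, log2) over the tested genes of each pathway list and over all genes, in ADREX rats (circles) and sham rats (squares), with the number of tested genes in brackets. The glucocorticoid-responsive list lies at 0.61 in sham and at -0.11 in ADREX rats, and the immediate early, respiratory chain and cholesterol synthesis lists lie at -0.18, -0.14 and 0.10 in ADREX rats.

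Some markers of other cell types and of blood spread widely within ADREX groups, and no marker gene was called for ozone. Red blood cell transcripts had the largest median in size among the lists, with a median of -1.27 over 4 tested genes and Hbb, beta globin, at -1.52 ± 0.76, none passing. Summed over the list they made up 23.6 to 288 RPM (recovered reads scaled to library depth) in brainstem air and 12.3 to 182 in ozone, and 16.5 to 210 against 11 to 139 in the hypothalamus. Cerebellar markers were positive in 10 of 12 cases (83.3%, beside 49.2% of all genes) with a median of 0.33. They made up 368 to 656 RPM in brainstem air and 386 to 965 in ozone. Choroid plexus markers were negative in 10 of 13 (76.9%, beside 50.8% of all genes) with a median of -0.33. Liver transcripts had a median of 0.36, which was 0.98 without hypothalamus ADREX air 68, a library rich in albumin (15622 normalized counts of Alb), and -0.028 without brainstem ADREX air 66. Left-out libraries or numbers took the medians from -1.99 (without 68) to -0.804 (without 66) for red blood cell transcripts and from 0.217 (without 67) to 0.539 (without 84) for cerebellar markers. For choroid plexus markers they ran from -0.668 without number 82 to -0.048 without hypothalamus ADREX air 67, and liver transcripts stood at -0.138 without both libraries of number 66. Growth hormone (Gh1) was at 0 in 15 of 16 libraries. Neuron, astrocyte, microglia and oligodendrocyte markers had medians from -0.05 to 0.02. The part of these transcripts in the values above was not tested.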

How the data were processed

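Messenger RNA of brainstem and hypothalamus was sequenced in 32 libraries, 4 per group. The deposited table holds normalized counts (a signal that is the read count divided by a size factor) for 22587 genes. Per the submitters' processing notes, Partek, DESeq2 and the build rn6 were used, with no role given for any of them, and the counting tool and strand setting were not stated. Whole reads were recovered from the steps between values (0.623 to 1.25 normalized counts per read), and 100% of values came out whole within 0.001. Genes with a mean of 10 or more were tested on log2(value + 1) with limma 3.58.1 (trend, R 4.3.3), with tissue as a factor, Benjamini-Hochberg adjustment and a threshold of 0.05. A fold change on this scale understates the change of low genes. Single genes were also tested by exact permutation of the numbers, each number's 2 tissues averaged. The code was tested on simulated data. Alternatives were edgeR 4.0.16 and DESeq2 1.42.0 on recovered reads, other scalings, filters and pseudocounts, sample weights, replicate blocks and left-out libraries. Named genes were those of smallest p for ozone in ADREX rats or for the difference between tissues, the 10 most positive and 10 most negative called differences from sham (all with a mean of 50 or more in the highest group and no provisional symbol), genes whose exposures separated in both tissues, members of smallest p per list, and a panel of 28 genes. Not every gene so picked is described, and Egr1, Hmgcs1, Insig1 and the provisional AABR07060862.1 were added after their values were seen. The members and lists were chosen with earlier results of these data known.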

Additional observations from a re-analysis of the deposited data

Results flagged for a closer look

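For 67 of the genes described, 268 sets of 4 libraries were examined. Of these sets, 29 had 1 library far from the other 3 of its group, where chance gives about 1 in 20, or 13. In brainstem ADREX ozone 81 the genes, with normalized counts, were Mcam (575, high), Zbtb16 (59.8, high), Plin4 (108, high), Sgk1 (81.6, low), Tsc22d3 (577, low) and Crh (19.9, low). In brainstem ADREX air 67 this was Ctu2 (64.8, high). In hypothalamus ADREX air 67 this was Bdnf (110, low), Rbm4 (235, low), Fmo2 (49.4, high) and Tnfrsf11a (87.1, high). In brainstem ADREX air 66 this was Cd93 (267, high) and Th (126, low). In hypothalamus ADREX ozone 81 this was Pla2g3 (39.4, high). In hypothalamus ADREX ozone 82 this was Plin4 (21.6, high) and Ifi44 (105, low). In hypothalamus ADREX ozone 84 this was Rgs2 (111, low), Clcc1 (689, high), Irf9 (72.7, low), Fdft1 (1977, high), Crh (34, high) and Nqo1 (131, high). In hypothalamus ADREX air 66 this was Astn2 (447, low). In brainstem ADREX air 65 this was Irf9 (207, high), Atf6 (458, low) and Fos (76.2, high). In brainstem ADREX ozone 82 this was Ndufv2 (1072, high), Avp (5.9, high) and Nqo1 (86.2, low).

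The ozone change differed between ADREX and sham rats for 27 of these genes (limma, adjusted p under 0.05 over all genes), beside 178 of 14533 genes (1.22%) in all. Of the genes described, 17 were picked for this difference, so the count is a description. On the log2 scale, ADREX minus sham was positive for Mcam 0.59, Hs3st1 0.54, Dusp16 0.69, Cd180 1.65, Gbp2 1.16, Rasgrp3 1.12, Cd93 1.01, Adamts1 0.97, Tlr2 0.97, Kdr 0.87, Stard9 0.59 and Slco1c1 0.78. It was negative for Clcn2 -1.13, Mxd4 -0.45, Fmo2 -2.67, Cdkn1a -2.59, Zbtb16 -2.38, Pla2g3 -2.35, Fkbp5 -2.34, Plin4 -2.34, Slc19a3 -2.32, Gpd1 -1.91, Mt2A -1.89, Tnfrsf11a -1.82, Ddit4 -0.98, Fosb -1.12 and Aspa -1.44.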

How the results depend on the processing

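Without adrenals, the count of called genes was 0 in the main fit, 1 with DESeq2 (Ncoa5), 2 in the fit of all 32 libraries (Mxd4 and Ncoa5) and 0 to 1 with libraries or numbers left out. The difference between tissues gave 1 call with no filter on low values (Treml1). Sham calls numbered 1592 with sample weights and 492 to 1068 with libraries left out, and calls for the difference between operations 407 and 115 to 208. Sham-called genes with the same sign at an unadjusted p under 0.05 in ADREX rats numbered 154 with sample weights, 157 in the fit of all 32 libraries and 62 to 153 with libraries left out, and their median signed change 0.0541 to 0.0931. The pooled change of Crh ran from -0.39 to 0.00927 with libraries left out. The cause of these shifts was not tested. Library numbers recur across tissues, but the labels do not say that a number marks a rat. Same-number deviations had correlations from -0.53 to 0.19 in ADREX rats, where 1 of 8 numbers correlated best with itself, and from -0.20 to 0.61 in sham rats, where 3 of 8 did. With 1 value per number as the replicate block, sham calls were 588 and calls for the difference between operations 92, and Adamts1, Tlr2, Kdr and Mt2A lost theirs (limma, adjusted p = 0.116, 0.112, 0.0715 and 0.0562). Under sham calls from that block, an alternative chosen after seeing the data, 386 genes had the same sign in ADREX rats. Removing libraries rich in liver transcripts was not run, because 12 of the 16 ADREX libraries exceeded the limit set for it.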

Other observations

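Red blood cell transcripts followed the library number across tissues in ADREX rats. Hbb read 1481 normalized counts in the brainstem and 1011 in the hypothalamus for number 66, 1066 and 753 for number 81, and 44.6 and 39.9 for number 84. Over the 8 numbers, log2 levels in the 2 tissues had a Pearson r of 0.988 and a Spearman rho of 0.976 for Hbb (exact permutation p = 4.96e-05 and 0.000397, adjusted over 5 genes 0.000248 and 0.00198). Without the 2 numbers farthest from the median, r was 0.978. Hba-a2 had r = 0.951 and rho = 0.905 (exact permutation p = 0.000422 and 0.00456, adjusted 0.00105 and 0.00761), and 0.939 without the farthest 2. Alas2, the erythroid haem synthesis enzyme, had r = 0.921 and rho = 0.905 (exact permutation p = 0.00171 and 0.00456, adjusted 0.00285 and 0.00761), and 0.958 without them. Ttr and Alb had r = 0.371 and -0.580 and rho = 0.690 and -0.405, with exact permutation p values for r of 0.371 and 0.132.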
